A study of Caenorhabditis elegans with 4 samples.

Results

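The Wnt ligands, receptors and effectors described here are 10 genes of *C. elegans*: the ligands *mom-2*, *cwn-1*, *cwn-2*, *egl-20* and *lin-44*, the receptor *mom-5*, and the effectors *wrm-1*, *lit-1*, *sys-1* and *pop-1*. They were taken by name, as every probe set whose platform annotation names one of these genes alone, which gave 15 probe sets for the 10 genes, out of 17118 genes named alone on the array. RNA of whole embryos, released with hypochlorite from populations of gravid adults, was hybridised to 4 arrays, each an Affymetrix *C. elegans* genome chip. The arrays fall into 2 labelled *daf-19(-)*, of the genotype daf19(m86)_daf12(sa204), and 2 labelled *daf-19(+)*, of the genotype daf19(WT)_daf12(sa204). The *daf-12(sa204)* mutation, which suppresses the dauer-constitutive phenotype of *daf-19(m86)*, is therefore carried by both groups. DAF-19 is a transcription factor of the RFX family, which acts through X-box motifs in promoters of ciliary genes, and the comparison asks which RNAs depend on it.

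Wnt ligands are secreted, lipid-modified glycoproteins that bind Frizzled receptors. In the early *C. elegans* embryo the Wnt MOM-2 and the Frizzled MOM-5 polarise the endomesodermal blastomere EMS, so that its posterior daughter makes the intestine. In this and many later divisions the beta-catenin WRM-1 and the Nemo-like kinase LIT-1 promote the nuclear export of the TCF/LEF factor POP-1 in the signalled daughter cell, while the beta-catenin SYS-1 acts there as the coactivator of the POP-1 that remains.

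The sources name the groups in opposite ways. In the supplementary table of array signals that accompanies the study, each of 1998 of 1998 rows used here gives the values of the arrays deposited as *daf-19(-)* under the heading *daf-12*, and those of the arrays deposited as *daf-19(+)* under *daf-19;daf-12*. *daf-19* itself, read by a pair of probe sets, had signals of 2493 and 2365 on the arrays labelled *daf-19(-)*, against 768 and 857 on those labelled *daf-19(+)*, at the brighter of them (log2 fold change 1.56 ± 0.19, standard error, limma adjusted p = 0.00166). The other gave a log2 fold change of 1.54 (limma adjusted p = 0.00513). Nothing in the sources used here says whether *m86* removes the RNA that these probes read, so the level does not settle the naming. The study orders that table by the fall in *daf-19(-)* animals, with known X-box genes such as *osm-6* and *xbx-1* near its top. On these arrays that reading holds only under the headings of the table. Under the deposited labels the same genes would be higher in *daf-19(-)* animals. Apart from the arrays, the paper cites earlier work in which DAF-19 controls ciliary genes, *osm-6* among them, and is needed for cilia. A fall of such genes without DAF-19 is what the headings give, and the deposited labels give the reverse. The deposited labels may therefore be swapped, which was not tested further. Each difference below is given for the arrays as labelled, *daf-19(-)* over *daf-19(+)*, and under the headings of the supplementary table each sign would run the other way. Across arrays the median signal ranged from 106.0 to 144, and 12084 to 13454 probe sets reached a signal of 80. Replicate 1 labelled *daf-19(+)* correlated least with the arrays labelled *daf-19(-)*, at 0.937 and 0.935 over tested probe sets, against 0.958 and 0.962 for replicate 2 of its label. The last of these, across labels, was above the 0.960 between the replicates labelled *daf-19(+)*.

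The signal is the GCOS expression value of a probe set, on a linear scale on which the authors set each chip to the same target. A probe set was tested where it reached 80 on at least 2 of the 4 arrays, as log2(signal + 16) with limma. This held for 13 of the 15 probe sets, which cover 8 of the 10 genes, and *egl-20* and *pop-1* were too dim. No difference between the labelled groups passed for any of the 8 genes: 0 of 13 probe sets had an adjusted p under 0.05 in either direction, against 0.359% of all 13096 tested probe sets higher and 0.084% lower. At an unadjusted p under 0.05 the count was also 0 of 13, against 18.3% of all, and the lowest unadjusted p was 0.0765 (limma, adjusted p = 0.32), for *mom-5*. With the replicate number as a block 0 of the 13 passed as well, against 4.37% of all higher and 3.01% lower. No probe set of the 10 genes differed 2-fold in mean signal, against 3.13% of all that were 2-fold or more higher and 0.977% that were 2-fold or more lower. In RNA of whole embryos, fewer cells of a type and less RNA per cell cannot be told apart.

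How large a difference these arrays would still allow is given by the intervals. The 95% interval of the log2 fold change lay inside a 2-fold change either way for 13 of the 13 probe sets, against 62.7% of all tested probe sets. The widest reached from -0.87 to 0.75, for the dimmer probe set of *sys-1*. The 13 log2 fold changes ran from -0.35 to 0.26, with 4 above 0 and 9 below, and a median of -0.06 against 0.06 for all tested probe sets. Their median size regardless of sign was 0.09, against 0.29 for all. The 13 probe sets were also brighter, with a median signal of 794 against 531 for all, and had a lower median standard error, 0.21 against 0.25. The part of brightness in these shares was not tested.

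**Figure D1:**
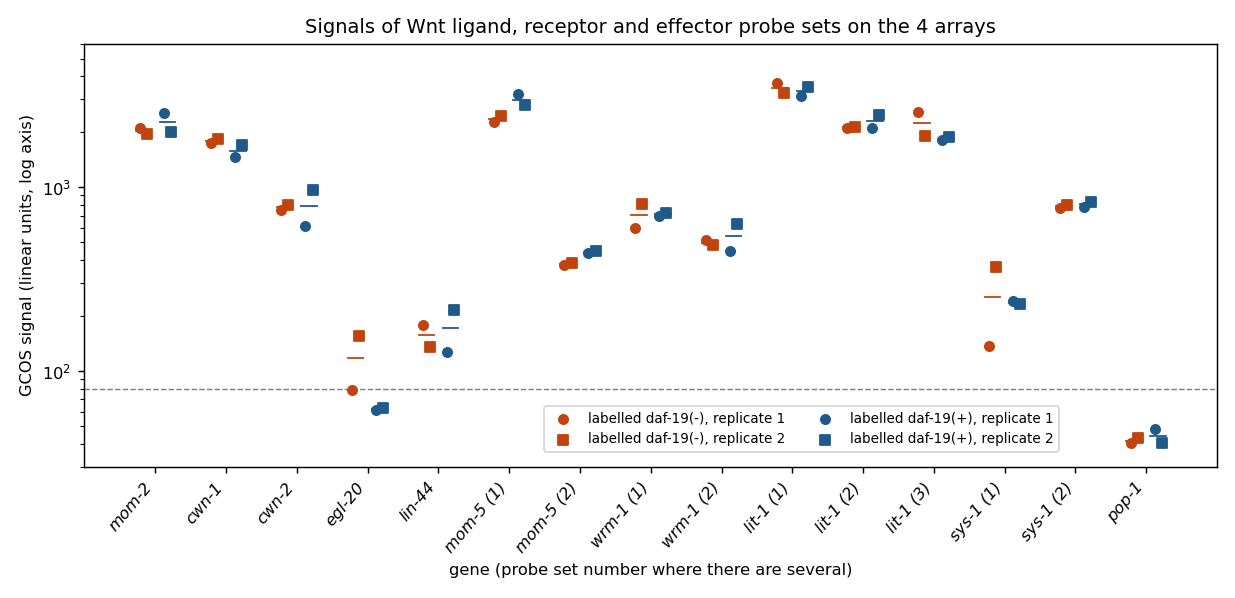
Signals of the 15 probe sets on each of the 4 arrays, on a log axis. For each probe set the points at the left are the arrays labelled daf-19(-) and those at the right the arrays labelled daf-19(+), short lines are the group means, and the dashed line is the signal of 80. All probe sets but those of egl-20 and pop-1 lie above 80 on every array, and levels are not comparable between probe sets.

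The 4 ligands tested had differences smaller than the spread between replicates of at least 1 group. *mom-2* (F38E1.7, on chromosome V), the ligand of the early embryo, had signals of 2090.3 and 1948 on the arrays labelled *daf-19(-)*, against 2542 and 1985 on those labelled *daf-19(+)*. The groups overlapped, and replicate 1 labelled *daf-19(+)* was the highest of the 4. The means were 2019 ± 101 and 2263 ± 394 (SD, n = 2 each), and the log2 fold change was -0.15 (95% interval -0.57 to 0.26, limma adjusted p = 0.69). Without replicate 1 labelled *daf-19(+)* the log2 fold change of *mom-2* was 0.023.

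*cwn-1* (K10B4.6, on chromosome II), which acts with other Wnts in the migration of neurons, had 1737 and 1828 on the arrays labelled *daf-19(-)*, against 1458 and 1696 on those labelled *daf-19(+)*. The groups did not overlap, by a small margin: the highest signal labelled *daf-19(+)* was 1696 and the lowest labelled *daf-19(-)* was 1737. The log2 fold change was 0.18 (95% interval -0.23 to 0.59, limma adjusted p = 0.64), smaller than the difference of 0.22 between the replicates labelled *daf-19(+)*.

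*cwn-2* (W01B6.1, on chromosome IV), a Wnt with roles in neuronal migration and neurite placement, had 754 and 796 on the arrays labelled *daf-19(-)*, against 616 and 958 on those labelled *daf-19(+)*. The signals labelled *daf-19(+)* enclosed those labelled *daf-19(-)*, and the ratio of means was 0.985. The log2 fold change of *cwn-2* was 0.01 (95% interval -0.51 to 0.53, limma adjusted p = 0.99). It was -0.30 without replicate 1 and 0.32 without replicate 2 labelled *daf-19(+)*, so the sign rested on which of these arrays was kept.

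*lin-44* (E01A2.3, on chromosome I), which the epidermis of the tail tip secretes to orient divisions and axons there, had 178 and 134 on the arrays labelled *daf-19(-)*, against 126.4 and 214.3 on those labelled *daf-19(+)*. The groups overlapped, the log2 fold change was -0.08, and the interval was wide, from -0.85 to 0.68 (limma adjusted p = 0.93).

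*egl-20* (W08D2.1, on chromosome IV), which cells near the rectum secrete to guide migrating neuroblasts, had 78.9 and 154.8 on the arrays labelled *daf-19(-)*, against 61.1 and 62.7 on those labelled *daf-19(+)*. Only replicate 2 labelled *daf-19(-)* stood clear of a signal of 80. The ratio of means was 1.89, and it was 1.27 without that array and 2.50 without the other replicate of its group. In a fit with no filter on dim probe sets the log2 fold change of *egl-20* was 0.71 (95% interval -0.41 to 1.83, limma adjusted p = 0.60). This interval includes both no difference and a level more than 2-fold higher, so these arrays do not tell them apart.

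*mom-5* (T23D8.1, on chromosome I), the Frizzled that receives MOM-2 in the early embryo, had the difference of the greatest size among the 8 genes tested, and both of its probe sets had it in the same direction. The brighter gave 2248 and 2442 on the arrays labelled *daf-19(-)*, against 3201 and 2779 on those labelled *daf-19(+)*. The other gave 378 and 384 on the arrays labelled *daf-19(-)*, against 437 and 450.1 on those labelled *daf-19(+)*. At both probe sets all signals labelled *daf-19(-)* lay below all signals labelled *daf-19(+)*. The ratio of means was 0.784 at the brighter (log2 fold change -0.35, 95% interval -0.73 to 0.04, limma adjusted p = 0.32) and 0.858 at the dimmer (log2 fold change -0.21, 95% interval -0.73 to 0.30, limma adjusted p = 0.66). Leaving out each array in turn kept the log2 fold change between -0.45 and -0.24 at the brighter probe set and between -0.23 and -0.19 at the dimmer, and none of these fits passed. In *mom-5* alone, at both probe sets, the difference between the groups exceeded the difference between replicates in each group. At the other 11 of the 13 probe sets the replicates of at least 1 group lay further apart than the groups did.

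Probe sets whose groups did not overlap numbered 2 of 13 on the higher side, of *cwn-1* and *lit-1*, and 2 of 13 on the lower side, both of *mom-5*. Each is 15.4% of the 13, against 29.7% of all tested probe sets on the higher side and 21.6% on the lower.

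**Figure D2:**
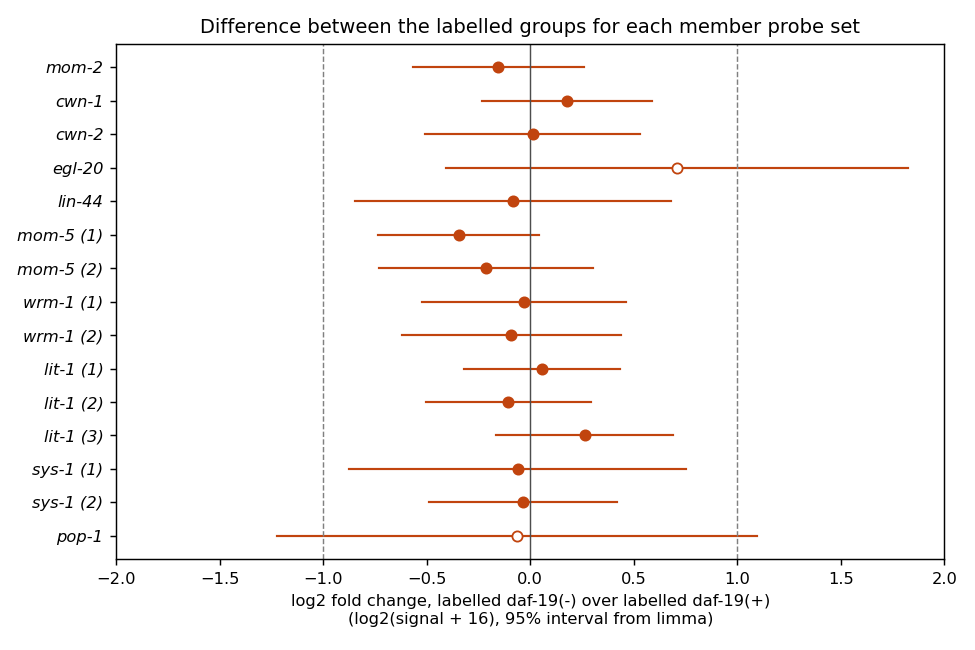
Log2 fold change of each probe set, labelled daf-19(-) over labelled daf-19(+), with its 95% interval from limma. Open circles are egl-20 and pop-1, from the fit without a filter, and dashed lines mark 2-fold. All 13 tested intervals lie between the dashed lines and cross 0, and those of egl-20 and pop-1 pass a dashed line.

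The effectors downstream of the receptor lay close to 0. *wrm-1* (B0336.1, on chromosome III), the beta-catenin that binds LIT-1, had 597 and 813 at its brighter probe set on the arrays labelled *daf-19(-)*, against 699 and 727 on those labelled *daf-19(+)*. Its dimmer probe set had 516 and 482 on the arrays labelled *daf-19(-)*, against 449 and 631 on those labelled *daf-19(+)*. In each case the replicates of 1 group enclosed both signals of the other. The log2 fold changes were -0.03 (limma adjusted p = 0.96) and -0.09 (limma adjusted p = 0.87).

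*lit-1* (W06F12.1, on chromosome III), the Nemo-like kinase that phosphorylates POP-1, was read by 3 probe sets, which disagreed in sign. The brightest had 3668 and 3232 on the arrays labelled *daf-19(-)*, against 3132 and 3503 on those labelled *daf-19(+)*, which is 0.06 as log2 fold change (95% interval -0.32 to 0.43, limma adjusted p = 0.895). Another had 2098 and 2124 on the arrays labelled *daf-19(-)*, against 2097 and 2463 on those labelled *daf-19(+)*, which is -0.11 as log2 fold change (limma adjusted p = 0.79). The third had 2551 and 1895 on the arrays labelled *daf-19(-)*, against 1791 and 1872 on those labelled *daf-19(+)*, which is 0.26 as log2 fold change (95% interval -0.17 to 0.69, limma adjusted p = 0.49). Its high reading came from replicate 1 labelled *daf-19(-)*, and without that array the log2 fold change of this probe set was 0.05. The brightest of these probe sets carries the suffix _x_at, which Affymetrix gives where probes may also bind other transcripts. In all, 8 of the 15 probe sets carry _s_at, given where probes are shared between transcripts, and 1 carries _x_at.

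*sys-1* (T23D8.9, on chromosome I) encodes the beta-catenin that serves as coactivator of POP-1, and lies on the same chromosome as *mom-5* with 3 protein-coding genes starting between them in the RefSeq annotation (assembly WBcel235). Its brighter probe set read much the same on all arrays, with 771 and 797 on the arrays labelled *daf-19(-)*, against 777 and 829.8 on those labelled *daf-19(+)*. Its log2 fold change was -0.03 (95% interval -0.49 to 0.42, limma adjusted p = 0.95). The dimmer probe set of *sys-1* had 136 and 366 on the arrays labelled *daf-19(-)*, against 239.5 and 231 on those labelled *daf-19(+)*. Here the arrays labelled *daf-19(-)* differed from each other by 1.33 on the log2 scale, the widest replicate difference of the 15 probe sets, and those labelled *daf-19(+)* by 0.05. The ratio of means was 1.07 while the log2 fold change was -0.06 (limma adjusted p = 0.95), so mean signal and mean log2 signal differed in sign.

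*pop-1* (W10C8.2, on chromosome I), the TCF/LEF factor on which the pathway acts, had 40.4 and 43.1 on the arrays labelled *daf-19(-)*, against 48.5 and 40.4 on those labelled *daf-19(+)*. All 4 signals were close to each other and below 80. In the fit with no filter the log2 fold change of *pop-1* was -0.06, with an interval from -1.22 to 1.10 (limma adjusted p = 0.98), so this probe set gives little information on *pop-1* RNA.

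**Figure D3:**
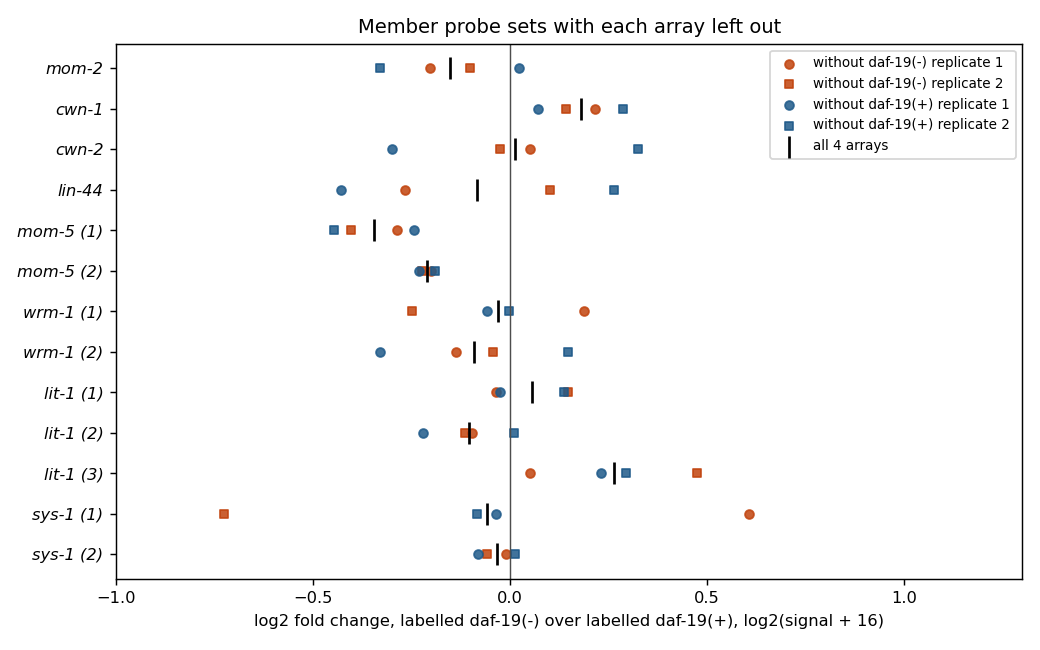
Log2 fold change of the 13 tested probe sets with each array left out in turn, beside the value from all 4 arrays (black bars). Only mom-5, cwn-1 and the third probe set of lit-1 keep their sign throughout, and the dimmer probe set of sys-1, marked (1), moves from -0.73 to 0.61.

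The rest of the pathway was read from a list of 41 genes, of which 40 were on the array under a name of their own and 39 were tested, each by its brightest probe set. Of the 39, 0 were called higher and 0 lower by limma, 0 were 2-fold higher or lower in mean signal, and 5 had an unadjusted p under 0.05, against 18.3% of all tested probe sets. The median log2 fold change was 0.10, with 21 genes above 0 and 18 below. With the replicate number as a block 2 of the 39 were higher, *dsh-1* and *pry-1*, and 1 was lower, *end-1*, shares near those of all tested probe sets in the same fit, 4.37% higher and 3.01% lower. In that fit limma took each variance from the trend alone, so its p-values do not measure the spread of the single gene.

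Of 9 genes that make or route Wnt proteins, 2 lay above 0 and 7 below, with a median of -0.09. After quantile normalization 1 lay above 0 and 8 below, and without replicate 1 labelled *daf-19(+)* 5 lay above 0. *mig-14*, the Wntless sorting receptor, had a log2 fold change of -0.07, and *mom-1*, the Porcupine acyltransferase, one of 0.10 (limma adjusted p = 0.87 and 0.89). *vps-29*, of the retromer that recycles MIG-14, had 670.3 and 1023 on the arrays labelled *daf-19(-)*, against 1402.5 and 1091 on those labelled *daf-19(+)*. These groups did not overlap, and the log2 fold change was -0.57 (standard error 0.24, limma adjusted p = 0.24). *snx-1*, a sorting nexin, had -0.21 (limma adjusted p = 0.70).

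Among 8 other receptors and proteins that bind Wnts or act on receptors, 7 lay above 0, and 6 of the 8 had groups that did not overlap on the higher side, a pattern that 29.7% of all tested probe sets had. Their median was 0.33, and 0.31 after quantile normalization, with 7 above 0 again. *lin-18*, the Ryk receptor, had 251.5 and 194 on the arrays labelled *daf-19(-)*, against 160.4 and 169.6 on those labelled *daf-19(+)*. Its log2 fold change was 0.39 ± 0.31 (standard error, limma adjusted p = 0.52). *sfrp-1*, a secreted Frizzled-related antagonist, had 1031 and 1297 on the arrays labelled *daf-19(-)*, against 833 and 965 on those labelled *daf-19(+)*, which is 0.36 as log2 fold change (limma adjusted p = 0.38). The Frizzleds *lin-17*, *mig-1* and *cfz-2* had 0.32, 0.33 and 0.32, the opposite sign to the Frizzled *mom-5*. Their dimmer probe sets had 0.17, 0.33 and 0.46 in the same order. *vang-1*, the Van Gogh protein of planar polarity, had -0.32 (limma adjusted p = 0.41). No gene of this group passed limma, and the difference in sign between *mom-5* and the other Frizzleds was not tested.

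The Dishevelled genes, which relay the signal from Frizzled, gave different readings. *dsh-1* had 1586 and 1130.1 on the arrays labelled *daf-19(-)*, against 662 and 861 on those labelled *daf-19(+)*. Its log2 fold change was 0.81 ± 0.23 (standard error, limma adjusted p = 0.13, or 0.00852 with the block). Its other probe sets, both dimmer, had log2 fold changes of -0.000585 and -0.07, so the difference was seen at 1 of 3 probe sets of the gene. Without replicate 2 labelled *daf-19(+)* the log2 fold change at the brightest probe set of *dsh-1* was 1.00. *dsh-2* and *mig-5* had -0.22 and -0.21 (limma adjusted p = 0.56 and 0.57).

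Of 6 genes of the destruction complex and its partners, which lower beta-catenin, *pry-1* stood furthest from 0. This Axin gene had 986 and 786 on the arrays labelled *daf-19(-)*, against 562 and 516 on those labelled *daf-19(+)*. Its log2 fold change was 0.69 ± 0.23 (standard error, limma adjusted p = 0.16, or 0.0439 with the block). Its dimmer probe set pointed the same way, with 145.5 and 163.9 on the arrays labelled *daf-19(-)*, against 96.3 and 46.7 on those labelled *daf-19(+)*, and a log2 fold change of 1.02 (limma adjusted p = 0.22). The kinase gene *gsk-3* had 0.66 (limma adjusted p = 0.44), which rested on a signal of 49.2 on replicate 2 labelled *daf-19(+)* beside 155.8 on the other array of that label, and was -0.036 without it. The other 4 genes of this group, among them *apr-1*, the APC gene, lay between -0.28 and -0.03. After quantile normalization 4 of the 6 lay above 0 and 2 below.

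*bar-1*, the beta-catenin of canonical Wnt signalling, had 342.5 and 429 on the arrays labelled *daf-19(-)*, against 268 and 228 on those labelled *daf-19(+)*. Its log2 fold change was 0.60 ± 0.27 (standard error, limma adjusted p = 0.26). *hmp-2*, the beta-catenin of cell junctions, had -0.21 (limma adjusted p = 0.60). Of the kinases and nuclear factors, *tap-1*, which activates the MOM-4 kinase upstream of LIT-1, had 0.30 (limma adjusted p = 0.46), and *par-5*, which takes part in the export of POP-1, had -0.29 (limma adjusted p = 0.39). None of the 5 genes tested in that group passed.

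**Figure D4:**
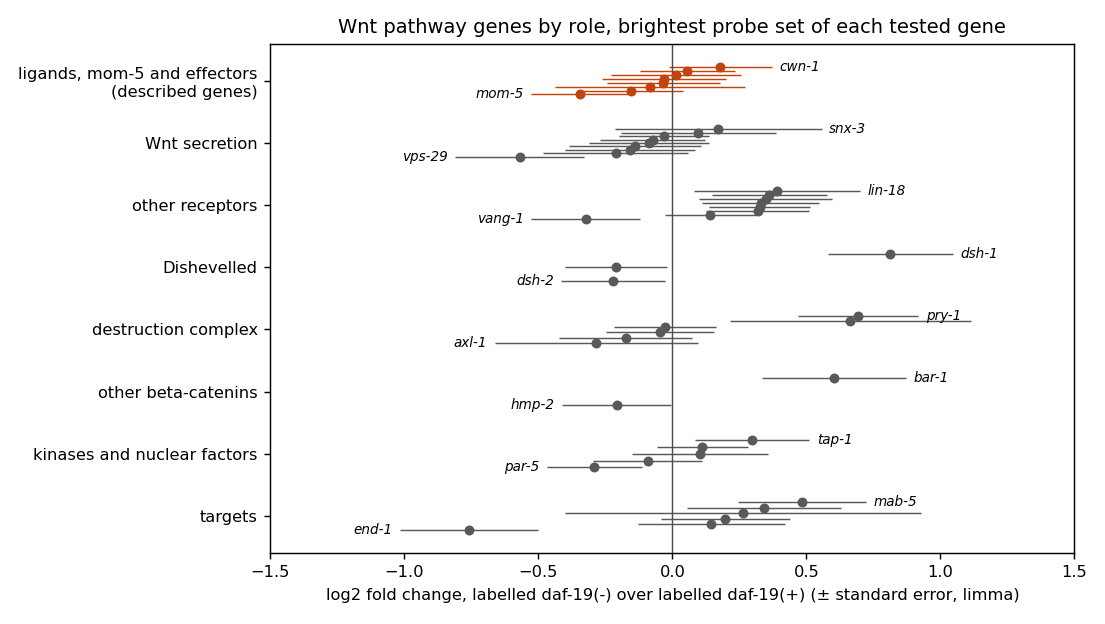
Log2 fold change (± standard error from limma), labelled daf-19(-) over labelled daf-19(+), of the brightest probe set of each tested Wnt pathway gene, by role, with the ends of each row named. The 8 described genes, in the top row, lie between -0.35 and 0.18, while dsh-1 at 0.81 and end-1 at -0.76 mark the ends of the whole pathway.

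Targets of the pathway lay on both sides of 0. *end-1*, the endoderm GATA factor gene that Wnt signalling and POP-1 control in the E lineage, had 277 and 340.1 on the arrays labelled *daf-19(-)*, against 609 and 462 on those labelled *daf-19(+)*. Its log2 fold change was -0.76 ± 0.26 (standard error, limma adjusted p = 0.17, or 0.0496 with the block). All signals labelled *daf-19(-)* lay below all signals labelled *daf-19(+)*. The log2 fold change of *end-1* was -0.95 without replicate 2 labelled *daf-19(+)* and -0.56 without replicate 1 of that label. The Hox gene *mab-5*, which EGL-20 switches on in migrating neuroblasts, had 1054 and 706 on the arrays labelled *daf-19(-)*, against 634 and 592 on those labelled *daf-19(+)*, which is 0.48 as log2 fold change (limma adjusted p = 0.30). *lin-39*, *ceh-22* and *psa-3* had 0.20, 0.34 and 0.15. *end-3*, the other endoderm GATA factor gene, had 81.7 and 75.0 on the arrays labelled *daf-19(-)*, against 177.1 and 16 on those labelled *daf-19(+)*. The groups overlapped, and its log2 fold change was 0.26 ± 0.66 (standard error, limma adjusted p = 0.86), opposite in sign to *end-1*. *egl-5* was below 80 on all arrays.

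Markers of embryonic stage and tissue differed between the arrays alongside these values. Of 18 early zygotic genes, which include *end-1* below 0 and *end-3* above it, 15 were on the array and 11 were tested, and 9 of the 11 lay below 0, with a median log2 fold change of -0.64. After quantile normalization 10 were tested and lay below 0. Their signals summed to 5597 and 5694 on the arrays labelled *daf-19(-)*, against 9479.8 and 7928 on those labelled *daf-19(+)*. Of 18 maternal genes, all tested, 14 lay below 0, with a median of -0.15. Their signals summed to 40059 and 36183 on the arrays labelled *daf-19(-)*, against 47333 and 37735 on those labelled *daf-19(+)*. With replicate 1 labelled *daf-19(+)* left out, the median of the maternal list was 0.06 and that of the early zygotic list was -0.56. The medians were 0.37 for 12 muscle genes, 0.53 for 12 pan-neuronal genes, 0.47 for 9 intestine genes and 0.19 for 9 epidermis genes tested, and 0.15, 0.15, 0.28 and -0.06 in the same order without replicate 1 labelled *daf-19(+)*. In the fit of all 4 arrays without the block, no gene of these lists passed limma. With the replicate block 3 early zygotic genes were lower, and 2 muscle, 2 pan-neuronal, 1 intestine and 1 epidermis gene were higher. In that fit 3.01% of all tested probe sets were lower and 4.37% higher, and each variance came from the trend alone. The part of stage in the values of *mom-5*, *mom-2*, *end-1* and *bar-1* was not tested.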

How the data were processed

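Total RNA of whole embryos was labelled with biotin and hybridised to 4 one-colour arrays. The deposited values are intensities: GCOS signals, with no version given in the sources used here, which the authors scaled chip by chip to a common target over all probe sets. Nothing else was done between chips.

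Of 22625 probe sets 77 controls were left out. Of the other 22548, 20766 name 1 gene, 887 several, and 895 are not named here; 20701 of the first were matched to RefSeq genes (WBcel235). Signals of 80 or more on at least 2 arrays were required, which left 13096. Tests used limma 3.58.1 in R 4.3.3 on log2(signal + 16), by lmFit and by eBayes with its trend option. They were two-sided, and p-values were adjusted by Benjamini-Hochberg over all tested probe sets. The offset understates changes of dim probe sets. Ratios are of mean signals, with no offset. The test was checked on simulated data with changes larger than 2-fold in brighter probe sets. Its recovery of smaller differences, or of changes in dim probe sets, was not checked. 0 columns of values were left unused.

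The study does not say whether the replicates were separate cultures, and p-values therefore measure only the spread between these arrays. The main fit used no pairing. In the fit with the replicate block same-numbered arrays count as pairs, because the study describes a pair of experiments and its table takes a fold within each. Replicate differences correlated at 0.12 between the groups. All 10 genes are described. Of the wider pathway, the rule names each gene called or 2-fold changed and the 2 of each role furthest from 0; *mom-1*, *mig-14*, *mig-5*, *lin-17*, *mig-1*, *cfz-2*, *vang-1*, *apr-1*, *lin-39*, *ceh-22*, *psa-3*, *egl-5* and *end-3* were named for their role after their values were seen. Genes, lists and rules were chosen with earlier results of these data known. Alternatives were other filters, offsets and variance settings, quantile normalization, the replicate block, a gene's mean over its probe sets, and each array left out. The number of arrays limits the precision.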

Additional observations from a re-analysis of the deposited data

How the results depend on the processing

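Of the genes that passed the filter on dim probe sets, 0 were called and 0 differed 2-fold under every alternative run, while *egl-20*, which did not pass it, had a ratio of mean signals of 2.50 without replicate 1 labelled *daf-19(-)*. The lowest adjusted p over 150 refits of the 13 probe sets was 0.11 (limma, *mom-5* without replicate 2 labelled *daf-19(+)*). A sign turned in 13 of the 150, none of them past the threshold, at 9 of 13 probe sets. The fits with another filter, with no variance trend or with the replicate block leave the log2 fold change of a probe set unchanged. Their signs could not turn, so the share of 150 understates how often signs turned where they could. All turns but 1 came with 1 array left out. After quantile normalization *cwn-2* had a log2 fold change of -0.00473. With 1 array left out the log2 fold change ranged from -0.33 to 0.023 for *mom-2*, from -0.30 to 0.32 for *cwn-2*, from -0.43 to 0.26 for *lin-44*, from -0.25 to 0.19 and from -0.33 to 0.15 for the brighter and dimmer probe sets of *wrm-1*, from -0.035 to 0.15 and from -0.22 to 0.0095 for those of *lit-1* that turned, and from -0.081 to 0.012 and from -0.73 to 0.61 for the brighter and dimmer probe sets of *sys-1*. In the wider pathway it ranged from -0.43 to 0.0052 for *snx-1* and from -0.036 to 1.36 for *gsk-3*.

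Called genes of the wider pathway numbered 2 higher and 1 lower with the replicate block, and from 0 to 1 in each direction with 1 array left out. Over all probe sets, 47 higher and 11 lower calls became 572 and 394 with the replicate block, 11 and 2 with no filter, and 26 and 2 with no variance trend. Quantile normalization gave 31 higher, and an offset of 64 gave 20 lower. Leaving out 1 array gave 14 to 971 higher and 4 to 614 lower, the highest without replicate 2 labelled *daf-19(+)*. *egl-20* and *pop-1* were too dim to test.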

Other observations

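Replicate 2 labelled *daf-19(+)*, without which the counts of calls were highest, had high signals at the brightest probe sets of *vit-4*, *vit-5* and *vit-6*. These are yolk protein genes, which are expressed in the adult intestine. Over all tested probe sets it was replicate 1 of that label that correlated least with the other arrays. The summed signal of the 5 vitellogenin genes on the array, each by its brightest probe set, came to 202 and 161 on the arrays labelled *daf-19(-)*, against 132 and 1001 on those labelled *daf-19(+)*. The brighter probe set of *vit-6* had 58.0 and 94.9 on the arrays labelled *daf-19(-)*, against 66.2 and 434.1 on those labelled *daf-19(+)*. Its dimmer probe set had 4.2 and 47.6, against 4 and 63.6, in the same order. Of the dimmer probe sets of *vit-4*, that with 43.9 and 181.7 on the arrays labelled *daf-19(+)* followed the brightest. The other, with 25.5 and 8.6, did not. Of these genes only *vit-6* passed the filter on dim probe sets, and the probe sets of *vit-4* and *vit-5* carry the suffix _x_at. *vit-1* read 66.3 on replicate 1 labelled *daf-19(-)*, against 56.3 on replicate 2 labelled *daf-19(+)*, where *vit-2* read 18.4. The part of the yolk gene signals in the values of the Wnt genes was not tested. Without replicate 2 labelled *daf-19(+)* the log2 fold change was -0.45 for the brighter probe set of *mom-5* and 0.29 for *cwn-1*. With all arrays these were -0.35 and 0.18.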
